A study of Drosophila melanogaster with 12 samples.

Results

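Glycolysis in the cytoplasm splits glucose into pyruvate, and the enzymes that come before pyruvate kinase are encoded in *Drosophila* by a small set of widely used genes. 10 of these genes are described here, of 9981 genes in the deposited tables: *Hex-A*, *Pgi*, *Pfk*, *Ald*, *Tpi*, *Gapdh1*, *Gapdh2*, *Pgk*, *Pglym78* and *Eno*. They were chosen by name, for their place in the pathway. All 10 were found in the tables of both experiments and all 10 passed the filter on low values, with 733 to 23011 reads per gene and library.

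As background, hexokinase traps glucose as glucose 6-phosphate, phosphoglucose isomerase and phosphofructokinase carry it to fructose 1,6-bisphosphate, and aldolase splits that sugar into a pair of triose phosphates. Triose phosphate isomerase, glyceraldehyde 3-phosphate dehydrogenase, phosphoglycerate kinase, phosphoglycerate mutase and enolase then lead to phosphoenolpyruvate, from which pyruvate kinase makes pyruvate. Pyruvate enters the mitochondrial matrix through the mitochondrial pyruvate carrier, of which *dMPC1* encodes one subunit, or is reduced to lactate in the cytoplasm.

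RNA-seq was run on dissected adult intestines of the labelled strain w1118 in 2 experiments, which ask how intestinal transcripts differ when the pyruvate carrier is lost. In the first, *myo1A-GAL4*, a driver active in the absorptive enterocytes, expressed RNAi against *dMPC1* (*myo1A > dMPC1-RNAi*, replicates 1, 2 and 3) or, as the control, against the *mCherry* reporter, which has no target in flies (*myo1A > mCherry-RNAi*, replicates 1 and 3). Both genotypes also carried *Tub-GAL80ts*, a temperature-sensitive repressor that restricts RNAi to the adult stage. RNAi was on for 7 days in adults labelled as 4 to 5 days old. In the paper's staining experiments this was the age at the shift to a higher temperature, before the 7 days. In the second, *dMPC1* mutants, transheterozygous for the deletion alleles *dMPC1 1* and *dMPC1 2* in every cell of the animal (replicates 1 and 2), were compared with a control that carries, on both chromosomes, a precise excision of the P element inserted in that gene (replicate 2), at 7 to 10 days of age. Each library is made from pooled intestines, so RNA from enterocytes, stem cells, enteroendocrine cells and the muscle around the gut was measured together. In such samples, fewer cells of a type and less RNA per cell cannot be told apart.

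The 8 libraries analysed held 7362983 to 21918521 reads in genes. Values are normalized counts, in which the authors scaled the reads of each library by its own size factor. The *dMPC1* transcript (*Mpc1* in the files) stood at 3114 and 2936 normalized counts in *myo1A > mCherry-RNAi* intestines and at 841, 803 and 819.5 in *myo1A > dMPC1-RNAi* intestines. With 1997 in the precise excision control against 5.31 and 13.7 in the mutants, the target matched the labels in every library. *myo1A > dMPC1-RNAi* replicate 1 stood apart from the other knockdown libraries. Its counts differed from theirs by 48.6 and 58.6 times the variance of sampling alone, against 12.0 between replicates 2 and 3, and the germline transcripts *osk* and *nos* stood at 90.5 and 45.7 normalized counts in it, against at most 4.16 in the other libraries of that experiment. Summed counts of the 10 enterocyte markers, all of them found, were 921074 to 943082 in the *mCherry-RNAi* libraries, 503367 to 650237 with *dMPC1* RNAi, 767654 in the precise excision library and 520772 to 654532 in the mutants, and no marker of this list was at 0 in every library. Most of these sums came from 3 protease genes, *betaTry*, *Jon65Aiii* and *Jon65Aiv*. The other 7 markers summed to 59598 and 65383 in the *mCherry-RNAi* libraries and to 102350, 70579 and 59051 with *dMPC1* RNAi, which overlap. For the precise excision library this sum was 57438, against 141607 and 165025 for the mutants. With RNAi limma called 1 of the 10 lower (*betaTry*) and 0 higher, and in the mutants 1 lower (*Npc1b*) and 2 higher (*Amy-p* and *Mal-A1*).

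With *dMPC1* RNAi in enterocytes, *Tpi* and *Pglym78* fell and the other 8 genes were not called in either direction. *Tpi* was at 60.1% and *Pglym78* at 63.2% of the control mean, and the others lay between 74.4% (*Pgi*) and 93.8% (*Hex-A*). Calls come from limma, a linear model fitted to all 8921 genes tested. They needed a Benjamini-Hochberg adjusted p no higher than 0.01 and a fold change, written on the log2 scale and called the log2 change here, no smaller than 0.6 in either direction. Of all genes tested, 6.71% were called lower and 7.03% higher by this rule, beside 2 of the 10 glycolytic genes lower and 0 higher. At an unadjusted p under 0.05, 7 of the 10 were lower and 0 higher in limma, in edgeR and in DESeq2, and each of these tools called 2 of them. In limma, 45.8% of all genes tested stood at such a p, in either direction.

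*Tpi* (FBgn0086355) encodes triose phosphate isomerase, which interconverts the 2 products of aldolase. It lies on chromosome 3R from 30132981 to 30134599, on the minus strand, in the BDGP6 annotation. Its transcript stood at 3139 and 2884 normalized counts in the *mCherry-RNAi* libraries and at 2073, 1725 and 1628 in the *dMPC1-RNAi* libraries. Every knockdown library was below both controls, and the knockdown library with the most *Tpi* was replicate 1. The means were 3011 ± 180.2 (SD, n = 2) and 1809 ± 234 (SD, n = 3), a log2 change of −0.74 (standard error 0.12, 95% interval −1.03 to −0.45, limma adjusted p = 0.00497).

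*Pglym78* (FBgn0014869) encodes the phosphoglycerate mutase that moves the phosphate of 3-phosphoglycerate to the neighbouring carbon. It lies on chromosome 3R from 29148248 to 29149901, on the plus strand. The transcript stood at 1994 and 1926 normalized counts in the controls and at 1323, 1192 and 1198 with *dMPC1* RNAi. The groups were separated by a wider gap than the spread within either of them. The means were 1960.0 ± 47.4 (SD, n = 2) and 1238 ± 74.2 (SD, n = 3), a log2 change of −0.66 (standard error 0.08, 95% interval −0.87 to −0.46, limma adjusted p = 0.00208).

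Both calls depended on which libraries were fitted and on how the libraries were scaled. The limma adjusted p of *Tpi* was 0.0247 without *dMPC1-RNAi* replicate 2 and 0.0175 without *dMPC1-RNAi* replicate 3. For *Pglym78* these values were 0.0132 and 0.0103. Without either control library both calls were also lost, in fits that put all groups in 1 model. Log2 changes were then −0.68 without *mCherry-RNAi* replicate 1 and −0.80 without replicate 3 for *Tpi*, and −0.64 and −0.69 for *Pglym78*. The target *Mpc1* lost its call in both of these fits too, with −1.84 and −1.92. It is not a like comparison, because the spread between the mutants enters these fits. Among the mutants *Mpc1* was near 0 with a coefficient of variation of 62.3%, against 0.664% for *Tpi* and 1.33% for *Pglym78*. Without *dMPC1-RNAi* replicate 1, the library that stood apart, both genes were called, with log2 changes of −0.84 (adjusted p = 4.97e-05) and −0.71 (adjusted p = 6.30e-05). Each of the 2 calls held in 8 of 14 alternative settings, and the sign was negative in all 14.

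Upstream of these steps, *Pgi* (FBgn0003074, chromosome 2R from 8910900 to 8914069) encodes phosphoglucose isomerase. It stood at 2013 and 1919 normalized counts in the controls and at 1409, 1548 and 1432 with *dMPC1* RNAi, so the groups did not overlap. Its log2 change of −0.43 (standard error 0.08) had an adjusted p of 0.00943 in limma but was short of the minimum fold change. With the adjusted p alone as the rule, a setting added after the values were seen, 3 of the 10 genes were lower, *Pgi* with *Tpi* and *Pglym78*, beside 8.34% of all genes. *Pfk* (FBgn0003071, chromosome 2R from 10109740 to 10117457) encodes phosphofructokinase, the enzyme of the committed step. It stood at 919.5 and 898 in the controls and at 717, 704 and 638 in the knockdown libraries, which lie close together below both controls. The log2 change of −0.41 (95% interval −0.62 to −0.19) did not pass the test (limma adjusted p = 0.0146). *Ald* (FBgn0000064, chromosome 3R from 26254069 to 26261591) encodes aldolase. It stood at 9613 and 9515 in the controls and at 7117, 8346 and 7613 with *dMPC1* RNAi, also without overlap, and its log2 change of −0.32 had an adjusted p of 0.0444 in limma.

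*Hex-A* (FBgn0001186, chromosome X from 9585675 to 9589813) encodes hexokinase A, which makes glucose 6-phosphate at the entry to the pathway. It was the only one of the 10 whose groups overlapped. The controls held 3006 and 2934 normalized counts, and the knockdown libraries 3770.1, 2411 and 2174, with replicate 1 above both controls and replicates 2 and 3 below both. The coefficient of variation in the knockdown group was 30.9%, against 0.837% (*Gapdh1*) to 12.9% (*Tpi*) for the other 9 genes. The high *Hex-A* value came from the library with the high *osk* and *nos* counts, and the part of those other cells in it was not tested. The log2 change was −0.14 (95% interval −0.67 to 0.40, limma adjusted p = 0.670). Without *dMPC1-RNAi* replicate 1 it was −0.38 (adjusted p = 0.00300), short of the minimum fold change, and without replicate 3 it was 0.02.

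*Gapdh1* (FBgn0001091, chromosome 2R from 7791901 to 7793380) and *Gapdh2* (FBgn0001092, chromosome X from 15868145 to 15869661) both encode glyceraldehyde 3-phosphate dehydrogenase, which makes the first NADH of the pathway. *Gapdh1* stood at 4833 and 4624 normalized counts in the controls and at 4061, 4074 and 4010.1 with *dMPC1* RNAi. *Gapdh2* stood at 6956 and 6764 and at 6421, 5877 and 5499.6. Neither gene overlapped between the groups and neither passed the test, with log2 changes of −0.22 (limma adjusted p = 0.0593) and −0.21 (adjusted p = 0.125). *Pgk* (FBgn0250906, chromosome 2L from 2746880 to 2753068), for phosphoglycerate kinase of the first ATP-forming step, stood at 2193 and 2159 in the controls and at 1847, 1784 and 1543 in the knockdown libraries. Its log2 change of −0.34 had an adjusted p of 0.0403 in limma. *Eno* (FBgn0000579, chromosome 2L from 1724768 to 1729636), for enolase, stood at 7043 and 6777.5 and at 6213, 6411 and 6184, which is 90.7% of the control mean. That log2 change of −0.14 (95% interval −0.32 to 0.04) did not pass the test (limma adjusted p = 0.202), and the interval allows a change of either sign.

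**Figure D1:**
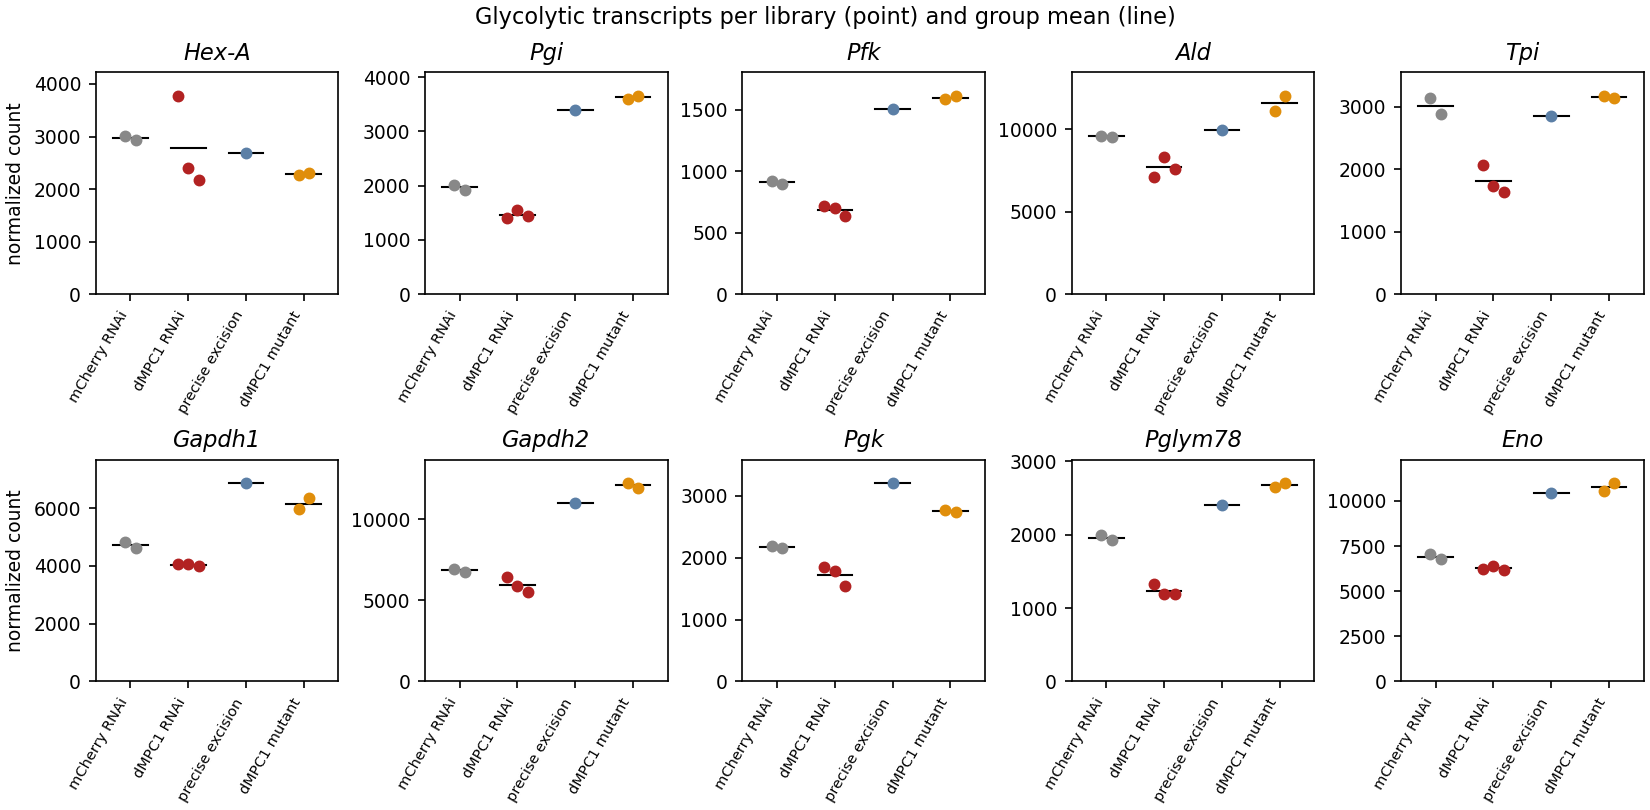
Normalized counts of the 10 glycolytic genes in pathway order, 1 panel per gene, with 1 point per library and a line at the group mean. In the *dMPC1-RNAi* libraries the points lie below both *mCherry-RNAi* points in 9 panels, and in the *Hex-A* panel replicate 1 stands at 3770.1, above both controls.

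As a group, the knockdown libraries lay below both controls without overlap in 9 of the 10 genes and above both in 0. Such a pattern was common in this experiment, with 31.8% of all genes tested lower and 30.8% higher without overlap. The median log2 change of the 10 genes was −0.33 (range −0.74 to −0.14), beside −0.01 over all genes tested. That all 10 values are negative held with TMM scaling but not with scaling by total reads in genes. With TMM scaling the median of the 10 was −0.32 (range −0.73 to −0.13), beside 0.003 over all genes tested. *Tpi* and *Pglym78* were called with it too (limma adjusted p = 0.00416 and 0.00174). The deposited size factors leave 15661796 and 15249386 normalized counts in total in the control libraries and 11984575 to 12325535 in the knockdown libraries. When each library was instead scaled by its total reads in genes (CPM), the median over all genes moved to 0.34, 272 genes were called lower and 1724 higher in place of 599 and 627, and 4 of the 10 genes kept a negative sign, *Tpi* (−0.40, adjusted p = 0.0363), *Pglym78* (−0.32, adjusted p = 0.0253), *Pgi* (−0.08) and *Pfk* (−0.06). The other 6 then stood between 0.00 (*Pgk*) and 0.21 (*Hex-A*), and 0 of the 10 were called in limma. Relative to the median of all genes, the median of the 10 was −0.32, a value that scaling cannot move much because it shifts all genes by nearly the same amount.

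**Figure D2:**
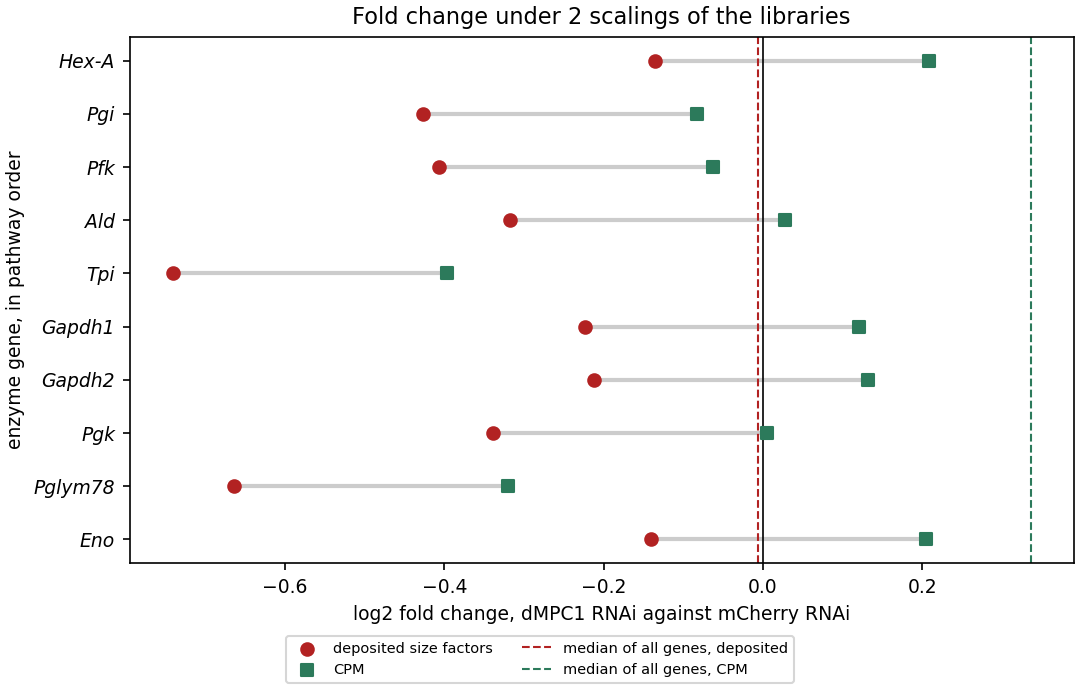
Log2 change of each glycolytic gene in *dMPC1-RNAi* against *mCherry-RNAi* intestines under the deposited size factors (circles) and with CPM scaling (squares), with dashed lines at the median of all genes tested under each. The circles run from −0.74 to −0.14 and the squares from −0.40 to 0.21, and the genes and the median of all genes shift by nearly the same amount.

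Reads of the 10 genes made up 0.266% and 0.265% of all reads in genes in the *mCherry-RNAi* libraries and 0.292%, 0.276% and 0.262% in *dMPC1-RNAi* replicates 1, 2 and 3, so their summed share overlapped between the groups. Cell type markers also differed in this experiment. Beside the enterocyte markers above, the summed counts of the 5 progenitor markers, all found, were 597 to 651 in the controls and 1537 to 1643 in the knockdown libraries. Of these 5, limma called 4 higher and 0 lower. Those of the visceral muscle markers, 9 of 10 found, were 24875 to 25476 and 19550.1 to 20581, with 1 of the 9 called lower and 0 higher in limma. The 7 enteroendocrine markers, all found, summed to 3643 to 3765 in the controls and 4865 to 5644 in the knockdown libraries, with 2 called higher and 0 lower. The fat body list, 6 of 7 found, summed to 25920 to 34771 and 9234 to 12513. Of its 5 genes tested, 3 were called lower, *Yp1* and *Yp2* among them, and 0 higher. The yolk protein genes *Yp1*, *Yp2* and *Yp3*, which stand in both the egg chamber and the fat body list, summed to 22602 to 30255 in the controls and 8100.3 to 11420.0 with *dMPC1* RNAi. The other 11 egg chamber markers summed to 6.58 and 18.7 in the controls and to 145, 25.9 and 49.8 in *dMPC1-RNAi* replicates 1, 2 and 3. Most of the 145 came from *osk* and *nos*. The control values were too low to show a fall, and limma tested 2 of the 11 and called 0. No gene found from these lists was at 0 in every library, and the part of these cells in the lower glycolytic transcripts was not tested.

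In *dMPC1* mutants none of the 10 genes was called. limma, edgeR and DESeq2 each called 0 of the 10 lower and 0 higher, and the count at an unadjusted p under 0.05 was also 0 in all 3, while 23.7% of all genes stood at such a p in limma. Of the 8794 genes tested, 2.39% were called lower and 1.31% higher. The control group of this comparison is 1 library, which was assumed to vary like the mutants.

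The precise excision control held 2859 normalized counts of *Tpi*, and the mutants held 3172 and 3143. For *Pglym78* the control held 2410.2 and the mutants 2652 and 2703. Both mutant libraries were above the control for each gene, the opposite side from the knockdown, with log2 changes of 0.14 (95% interval −0.16 to 0.45) and 0.15 (95% interval −0.15 to 0.46), neither of which was called. *Pgi* stood at 3386 in the control and at 3602 and 3651 in the mutants. *Pfk* stood at 1507 and at 1584 and 1609.8. *Ald* stood at 9934 and at 11109 and 12013. Mutants were above the control in all 3, most in *Ald*, with a log2 change of 0.22 (95% interval −0.16 to 0.60).

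For *Hex-A* the control held 2693 normalized counts, and the mutants 2262 and 2309. *Gapdh1* stood at 6864 and at 5958 and 6357, and *Pgk* at 3202 and at 2773 and 2742. These 3 genes were below the control in both mutants, with log2 changes of −0.24, −0.16 (0.02 with CPM scaling) and −0.22. *Gapdh2* stood at 11008.5 in the control and at 12229 and 11956, and *Eno* at 10417 and at 10565 and 10981, both above the control. In total the mutants were above the control in 7 of the 10 genes and below it in 3. With 1 control library nearly every gene falls on one side, and 41.2% of all genes tested were higher and 38.9% lower without overlap. Adjusted p-values of the 10 genes ran from 0.324 (*Hex-A*) to 0.897 (*Eno*) in limma, and the median log2 change was 0.09, beside 0.01 over all genes. The 95% intervals all lay within −0.54 to 0.60, and changes up to those sizes are within what these libraries allow. The 10 genes took 0.396% of the control reads and 0.480% and 0.456% of those of the mutants, a higher share in both. On that scale the typical gene was higher too. With CPM scaling the median log2 change was 0.27 for the 10 genes, beside 0.18 over all genes tested.

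Markers of other tissues set the lone control library apart from both mutants. The 3 yolk protein genes summed to 42733 in it and to 8563 and 9616 in the mutants, and limma called all 3 lower. Summed visceral muscle markers (9 of 10 found) were 32678 and 19907 to 20129.7 with 2 of 9 called lower, and summed hemocyte markers (3 of 4 found) were 926 and 297 to 392 with 1 of 3 called lower. The fat body list (6 of 7 found) summed to 47103 and 9427 to 10569, with 4 of 6 called lower and 1 higher, and 3 of those 4 are the yolk protein genes. The part of these tissues in the glycolytic values of the mutants was not tested.

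**Figure D3:**
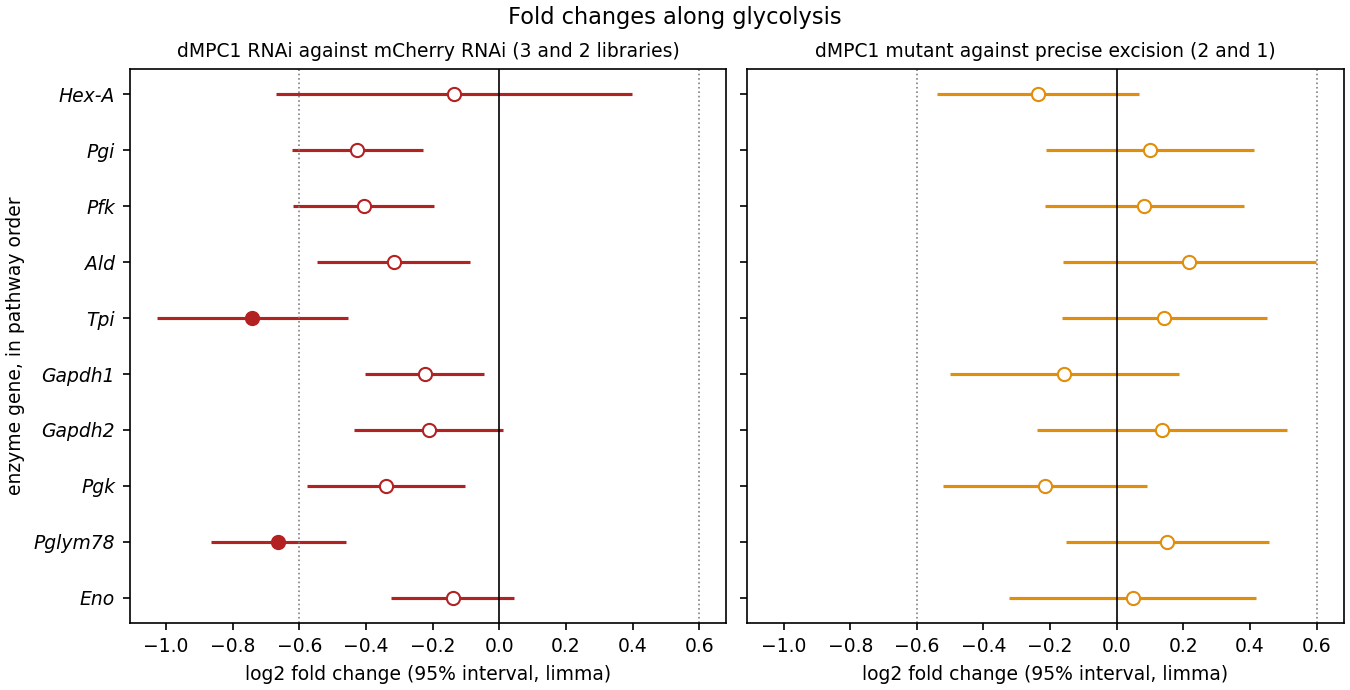
Log2 change with its 95% limma interval for each glycolytic gene in pathway order, in *dMPC1-RNAi* against *mCherry-RNAi* intestines (left, 3 and 2 libraries) and in *dMPC1* mutants against precise excision (right, 2 and 1). Filled points mark the called genes, *Tpi* at −0.74 and *Pglym78* at −0.66 on the left and none on the right, and dotted lines mark the minimum fold change of 0.6 in either direction.

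Whether the knockdown effect differed from the mutant effect was tested with an interaction term, fitted by limma to the 8 libraries together. For *Pglym78* the log2 change was lower by 0.82 in the knockdown than in the mutants (interaction −0.82, standard error 0.13, 95% interval −1.13 to −0.51, adjusted p = 0.00579), the only member of the pathway called here. For *Tpi* the interaction was −0.88 (standard error 0.19) and did not pass at an adjusted p of 0.0141. Those of *Ald* (−0.53, adjusted p = 0.0499), *Pgi* (−0.53, adjusted p = 0.0259) and *Pfk* (−0.49, adjusted p = 0.0408) did not pass either. The other 5 stood between −0.35 (*Gapdh2*) and 0.10 (*Hex-A*), and the values of *Gapdh1* and *Pgk* were negative with the deposited scaling and positive with CPM scaling. Over all 8916 genes tested, 3.94% were called lower and 4.78% higher in this interaction, beside 1 and 0 of the 10. At an unadjusted p under 0.05, 5 of the 10 were lower and 0 higher in limma, edgeR and DESeq2, while 35.3% of all genes stood at such a p in limma, 34.4% in edgeR and 26.8% in DESeq2. edgeR called 1 of the 10 lower and DESeq2 called 2. The *Pglym78* interaction was called in 7 of 14 alternative settings (adjusted p from 7.93e-04 to 0.0358) and was lost without any 1 of the libraries other than *dMPC1-RNAi* replicate 1, among those that could be left out. The knockdown was directed to adult enterocytes while the mutants carried the deletions in every tissue and at every stage. The experiments also differed in transgenes and age, and may have differed in temperature, so these differences cannot be told apart.

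Levels can be compared between genes only per length, so normalized counts were divided by the exon length of each gene in the BDGP6 annotation. That length merges the exons of all annotated transcripts of a gene. Which transcripts the gut uses was not measured, so a gene with unused exons is understated and the order is approximate. In *myo1A > mCherry-RNAi* intestines *Gapdh2* was highest, with 4754 normalized counts per kilobase, at percentile 96.7 of the 8738 genes ranked. *Gapdh1* followed with 3195, *Ald* with 2511, *Tpi* with 1933, *Eno* with 1859, *Pglym78* with 1725, *Pgk* with 1030.4, *Pgi* with 799, *Hex-A* with 718 and *Pfk* with 208. The lowest was thus the gene of the committed step, at percentile 62.4, and the only neighbours in this order whose 2 control libraries overlapped were *Tpi* and *Eno*. With *dMPC1* RNAi *Eno* (1686) moved above *Tpi* (1161), whose libraries now overlapped those of *Pglym78* (1090 in the mean, 1049.6 to 1165 in the libraries). *Hex-A* (673) overlapped both *Pgk* (817) and *Pgi* (595) there. In the precise excision library *Eno* (2802) was above *Ald* (2608) and *Pglym78* (2122) above *Tpi* (1835). In the mutants *Ald* and *Eno* overlapped, *Pglym78* (2357) was again above *Tpi* (2027) and *Pgi* (1474) was above *Pgk* (1306). *Gapdh2* and *Gapdh1* were at the top and *Pfk* at the bottom in each of the 4 groups.

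**Figure D4:**
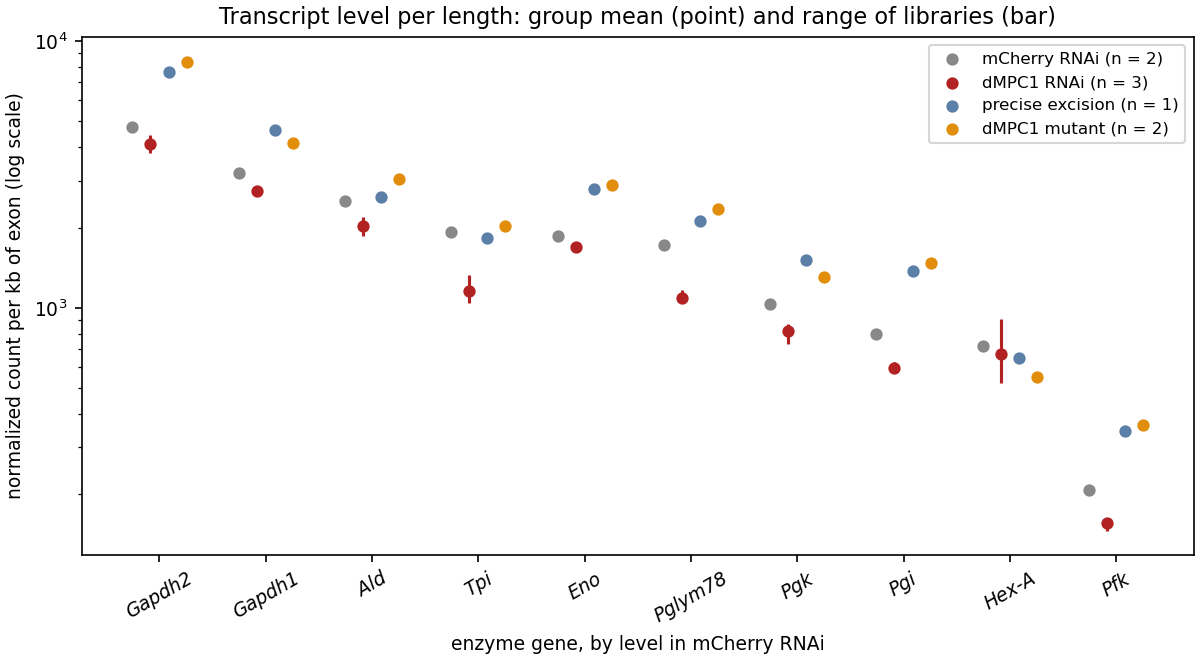
Transcript level of each glycolytic gene per kilobase of exon on a log scale, ordered by level in *mCherry-RNAi* intestines, with the group mean as a point and the range of libraries as a bar (1 precise excision library has no bar). *Gapdh2* is highest and *Pfk* lowest in every group, from 4754 to 208 in the *mCherry-RNAi* group, and the longest bar is that of *Hex-A* with *dMPC1* RNAi.

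The precise excision library differed from the *mCherry-RNAi* libraries in most of these genes. On the shared scale of normalized counts, *Pgi* was 1.72 times, *Pfk* 1.66 times, *Gapdh2* 1.60 times, *Eno* 1.51 times, *Pgk* 1.47 times and *Gapdh1* 1.45 times the *mCherry-RNAi* mean, while *Ald* (1.04), *Tpi* (0.949) and *Hex-A* (0.907) were near it and *Pglym78* was at 1.23. This is 1 library against 2, from another experiment, and no test was run.

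*Gapdh1* and *Gapdh2* are close copies, and how the authors assigned reads that match both is not given in the sources used here, so their separate values are uncertain. *Gapdh2* took 59.0% and 59.4% of the normalized counts of the pair in the *mCherry-RNAi* libraries and 61.3%, 59.1% and 57.8% in the *dMPC1-RNAi* libraries. The groups overlapped, with a difference of 0.184 percentage points (exact permutation test, two-sided, p = 0.90, smallest possible 0.10). In the second experiment the share was 61.6% in the control and 67.2% and 65.3% in the mutants. That is 4.67 percentage points higher in the mutant mean, and both mutants were above the control, but with 2 libraries against 1 the exact permutation test cannot go below p = 0.333, which is the value it gave. A change in library scaling does not move this share.

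In the BDGP6 annotation 4 of the 10 genes overlap a gene on the opposite strand, *Ald* by 338 bases with the antisense RNA gene *CR44321*, *Eno* by 362 with *Rrp40*, *Pgk* by 65 with *Cwc25* and *Pglym78* by 6 with *eIF2D*. Whether counting used strand is not given in the sources used here, and reads from the shared bases may not be told apart.

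Genes outside the pathway were ranked by how close their profile over the 8 libraries was to the mean profile of the 10, as the root mean square distance of centred log2 values, among the 6596 genes that averaged 100 or more normalized counts. The closest were *Vha13* (distance 0.0586), *VhaPPA1-1* (0.0770) and *Vha68-2* (0.0779), which encode subunits of the vacuolar proton pump, followed by *Galk* (0.0864), for galactokinase, and *Snmp1* (0.0866), for a CD36-like membrane protein. The 10 genes themselves lay between 0.0776 (*Pgk*) and 0.461 (*Hex-A*) from their own mean profile, so *Hex-A* followed it least. These distances describe 8 libraries that share their scaling, and no test was run on them.

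Enzymes that run beside or below these steps were taken as lists. Over all genes tested, limma called 6.71% lower and 7.03% higher with RNAi, and 2.39% lower and 1.31% higher in the mutants. An unadjusted p under 0.05, in either direction, was reached by 45.8% with RNAi and 23.7% in the mutants. The list counts below are to be read beside these shares. Of 13 listed paralogs and pyruvate kinases, 4 were found and 3 tested. With *dMPC1* RNAi 1 of the 3 fell and 0 rose in limma, edgeR and DESeq2 alike, 3 stood lower and 0 higher at an unadjusted p under 0.05, and the median log2 change was −0.78 beside −0.01 over all genes. In the mutants these tools called 0 of the 3, with 1 higher and 0 lower at such a p, and the median was 0.45 beside 0.01. The gene that fell was *Hex-C*, a second hexokinase gene, which stood at 1715 and 1578 normalized counts in the controls and at 804, 779.5 and 781 in the knockdown libraries. All 3 lie far below both controls, with a log2 change of −1.06 (standard error 0.08, limma adjusted p = 3.34e-04), and the call held in 14 of 14 alternative settings. In the mutants *Hex-C* stood at 1557 and 1887 against 1219 in the control, a log2 change of 0.49 short of the threshold (limma adjusted p = 0.105), and the interaction was called (−1.55, adjusted p = 0.00133). *PyK*, the main pyruvate kinase gene, stood at 5522 and 5339 in the controls and at 3817, 3926 and 3739 with *dMPC1* RNAi. Its log2 change of −0.50 (limma adjusted p = 0.00385) was short of the minimum fold change, and in the mutants it was −0.04 (adjusted p = 0.923).

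The side branches and gluconeogenesis list had 6 of 7 entries found. With *dMPC1* RNAi 4 of the 6 fell and 0 rose in limma and edgeR, while DESeq2 called 4 lower and 1 higher. At an unadjusted p under 0.05 limma had 4 lower and 1 higher, and the median log2 change was −0.77. *fbp*, for fructose 1,6-bisphosphatase, which runs against phosphofructokinase, stood at 707 and 654 normalized counts in the controls and at 359, 222 and 219.8 in the knockdown libraries. Replicate 1 was again the highest of the knockdown group, and all 3 were below both controls, with a log2 change of −1.39 (standard error 0.22, limma adjusted p = 0.00472). The others were *Pfrx*, for the enzyme that makes and removes fructose 2,6-bisphosphate, the activator of phosphofructokinase (−0.70, adjusted p = 0.00390), *CG10924*, for a phosphoenolpyruvate carboxykinase (−0.87, adjusted p = 0.00101), and *Gpdh*, for the glycerol 3-phosphate dehydrogenase that draws on the triose phosphates (−0.83, adjusted p = 6.65e-04). The calls of *fbp* and *Pfrx* were lost without either control library or without *dMPC1-RNAi* replicate 2 or 3 (adjusted p up to 0.0300 and 0.0273), and that of *Gpdh* without either control library (up to 0.0309).

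In the mutants 2 of these 6 genes fell and 0 rose in limma, with a median of 0.18. edgeR called 0 of them, DESeq2 called 2 lower and 1 higher, and 2 were lower and 1 higher at an unadjusted p under 0.05 in each tool. *CG10924* went from 983 to 416 and 419 normalized counts, a log2 change of −1.23 (limma adjusted p = 0.00197). *ImpL3*, the lactate dehydrogenase gene, was the other, with a log2 change of −1.38. Its call was lost when all libraries were put in 1 fit (limma adjusted p = 0.0103), and in such a fit without either mutant library. In the knockdown experiment *ImpL3* stood at 870.2 and 904.5 in the controls and at 1717, 1268 and 1294 with *dMPC1* RNAi, above both controls in every library. Its log2 change of 0.67 did not pass in the main fit (limma adjusted p = 0.0136). It was called higher in 2 of 14 alternative settings, DESeq2 and CPM scaling, with a log2 change of 1.01 in the latter. In the second experiment *fbp* stood at 592 in the control and at 1060.2 and 1345 in the mutants (1.01, adjusted p = 0.0118). The interaction was called for both genes, *ImpL3* at 2.05 (adjusted p = 0.00271) and *fbp* at −2.40 (adjusted p = 0.00443).

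Of the 11 sugar entry and storage genes, all found, 1 rose and 2 fell with *dMPC1* RNAi in limma and edgeR (median −0.49), and DESeq2 called 1 higher and 3 lower. In the mutants 1 rose and 1 fell in limma and DESeq2 (median 0.18), where edgeR called 0 higher and 1 lower. At an unadjusted p under 0.05 limma had 1 higher and 6 lower with RNAi, and 5 higher and 3 lower in the mutants. *Treh*, for trehalase, which splits the blood sugar trehalose into glucose, stood at 5318 and 5588 normalized counts in the controls and at 14904, 11922.5 and 10887 in the knockdown libraries. It was also higher in the mutants, at 7577 and 7214 against 3637. The log2 changes were 1.19 (limma adjusted p = 0.00157) and 1.02 (adjusted p = 0.00581). *UGP*, for UDP-glucose pyrophosphorylase on the way to glycogen, fell in both, with log2 changes of −1.21 (adjusted p = 8.85e-04) and −1.53 (adjusted p = 5.93e-04). *Tret1-1*, for a trehalose transporter, fell with RNAi (−1.01, adjusted p = 0.00227) and had 0.52 in the mutants (adjusted p = 0.155). Without *mCherry-RNAi* replicate 1 the RNAi calls of *Treh* and *Tret1-1* were lost, as was that of *Tret1-1* without *mCherry-RNAi* replicate 3 or *dMPC1-RNAi* replicate 2 (adjusted p up to 0.0111 for *Treh* and 0.0349 for *Tret1-1*). Without either mutant library the calls of *Treh* and *UGP* in the mutants were lost, in a model of all groups. That of *Treh* was also lost in such a model with no library left out (limma adjusted p = 0.0150).

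Of 8 pentose phosphate pathway genes, 7 were found. *Rpi*, for ribose 5-phosphate isomerase, fell with *dMPC1* RNAi, from 602 and 613 normalized counts to 379, 351 and 355 (−0.75, limma adjusted p = 0.00149), and the other 6 were not called by limma, edgeR or DESeq2 (median −0.37). At an unadjusted p under 0.05 4 of the 7 were lower and 0 higher in limma, beside 45.8% of all genes in either direction. The *Rpi* call was lost without *mCherry-RNAi* replicate 1 or *dMPC1-RNAi* replicate 2, and with the replicate block (limma adjusted p = 0.0116) or CPM scaling (0.0122). In the mutants 0 of the 7 were called by limma, edgeR or DESeq2, 3 were higher and 0 lower at an unadjusted p under 0.05 in limma, and the median was 0.32.

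All 8 genes listed as regulators of glycolytic transcription were found, and 3 fell and 0 rose with *dMPC1* RNAi by limma, edgeR and DESeq2 (median −0.43, with 6 lower and 0 higher at an unadjusted p under 0.05). *Mio*, for the sugar-sensing transcription factor Mondo, stood at 4432 and 4150.3 normalized counts in the controls and at 1488, 1674 and 1672 in the knockdown libraries. Every knockdown library was far below both controls, with a log2 change of −1.41 (standard error 0.09, limma adjusted p = 2.08e-04). *sug*, for the sugar-responsive zinc finger protein Sugarbabe, had −1.05 (adjusted p = 0.00513), and *sima*, for the fly HIF-1 alpha protein, had −0.69 (adjusted p = 0.00117). The *sug* call was lost without either control library or *dMPC1-RNAi* replicate 2 (adjusted p up to 0.0257), and that of *sima* without *mCherry-RNAi* replicate 1 (0.0116). *ERR*, for the estrogen-related receptor, a regulator of glycolytic genes in fly larvae, was the 1 gene of the list that rose in the mutants by limma (median 0.20, with 2 higher and 1 lower at an unadjusted p under 0.05), from 492 to 1034 and 1199 normalized counts (1.18, adjusted p = 0.00364). edgeR called 0 of the list there, and the *ERR* call was lost without either mutant library (up to 0.0286). With *dMPC1* RNAi *ERR* stood at −0.48 (adjusted p = 0.0197), and its interaction was called (−1.65, adjusted p = 0.00181). With CPM scaling all 12 genes of these lists that were called with RNAi had the same sign, but 6 of the 12 calls were lost. The log2 changes were then −0.36 for *Pfrx*, −0.53 for *CG10924*, −0.49 for *Gpdh*, −0.40 for *Rpi*, −0.34 for *sima* and −0.71 for *sug* (limma adjusted p from 0.00319 to 0.0378, with *Gpdh* and *CG10924* short of the minimum fold change alone). Of the 5 calls in the mutants, 5 held with CPM scaling, 3 in 1 fit of all libraries, 1 with edgeR (*UGP*) and 0 with no filter on low values.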

How the data were processed

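The authors aligned single reads of intestinal RNA to dm3. Novoalign and DESeq are named in the submitters' processing notes. Versions, annotation and use of strand were not given in the sources used here. Each deposited table holds a normalized signal, that is read counts scaled by the authors with 1 DESeq size factor for each library, and also the authors' own fold changes and p-values, which were not used. Of 12 labelled libraries, 8 were analysed and 4 were not analysed here. Dividing by the value of 1 read gave whole reads for 100% of values (within 0.001 read).

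Normalized counts were given a pseudocount of 1, put on the log2 scale and fitted with limma-trend (limma 3.58.1, R 4.3.3), each experiment alone, for all genes whose mean was 10 or more. This scale understates the change of low genes. Calls needed an adjusted p up to 0.01 and a log2 change no smaller than 0.6 in size, as in the study's methods, and the interaction the adjusted p alone. Residual degrees of freedom were 3 with RNAi and 1 in the mutants. The p-values measure the spread between these libraries. Alternatives were edgeR 4.0.16 and DESeq2 1.42.0 on the recovered reads, TMM scaling, total reads in genes (CPM, added after the library totals were seen), pseudocounts of 0.5 and 5, no filter, all libraries in 1 fit, a replicate block and leaving out each library. Without an *mCherry-RNAi* or mutant library, the remaining libraries of both experiments were put in 1 fit. Without a *dMPC1-RNAi* library, the RNAi effect was fitted in its own experiment alone. The limma fit was also run on simulated counts, with the same noise setting for every gene and library. The noise between these libraries was uneven, so that run cannot show how the fit performs here. Exon lengths, positions and overlaps came from the Ensembl BDGP6 annotation, matched by gene identifier for 9791 of 9981 genes (98.1%). It is a later build than dm3. The members, the gene and marker lists and the named genes (all members, called list genes, and *PyK*, *Hex-C*, *ImpL3* and *fbp* whatever their values) were chosen with earlier results of these data known.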

Additional observations from a re-analysis of the deposited data

Results flagged for a closer look

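*Pglym78* was flagged because its effect differed between the experiments by a test of the difference itself. The interaction was −0.82 on the log2 scale (adjusted p = 0.00579 from limma), with the transcript below both controls in 3 of 3 knockdown libraries and above the control in 2 of 2 mutants. Of all genes, 3.94% were called lower and 4.78% higher in this interaction. Without overlap, 31.8% were lower with RNAi and 41.2% higher in the mutants, which had 1 control library. The *Pglym78* call held in 7 of 14 alternative settings and was lost with CPM scaling. No group was large enough for a search for single outlying libraries.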

How the results depend on the processing

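With *dMPC1* RNAi, the count of glycolytic genes called lower (2) was 0 with CPM scaling, 1 with no filter on low values (*Pglym78*), 1 with the replicate block (*Tpi*, adjusted p = 0.00934) and 0 to 2 without 1 library. In the interaction the count (1) was 0 with CPM scaling, 2 with DESeq2 and 0 to 2 without 1 library. In the mutants it was 0 in either direction in all 10 alternatives. With the replicate block, 447 of all genes were called lower and 392 higher. *dMPC1-RNAi* replicate 2 has no control library of its number, so it adds nothing to the effect fitted with the block. The log2 changes were those of the fit without that library, −0.71 for *Tpi* and −0.64 for *Pglym78*, so these 2 settings are not independent. Same-numbered libraries deviated in opposite directions (r = −0.19 and −0.15). With 2 control libraries, the deviations of 1 mirror those of the other, so these values cannot decide whether the numbers pair the libraries. No paired analysis was possible in the mutants because the groups share 1 number. Over all genes with RNAi, 272 were lower and 1724 higher with CPM scaling, and 158 to 1040 lower and 220 to 895 higher without 1 library. In the mutants (210 lower, 115 higher), 0 and 0 were called with no filter, 99 and 33 with edgeR, 69 to 78 and 16 to 28 without 1 mutant library, while 213 were lower and 304 higher with CPM scaling and 48 higher in 1 fit of all libraries. In the interaction (351 lower, 426 higher), 223 and 512 were called with CPM scaling, 191 lower with no filter, 539 lower with DESeq2, and 36 to 885 lower and 85 to 748 higher without 1 library. Of the counts without 1 library, the highest with RNAi and in the interaction came without *dMPC1-RNAi* replicate 1 and the lowest without *mCherry-RNAi* replicate 1. The replicate block and no filter each kept 10 of the 12 RNAi calls of the pathway lists, losing *Pfrx* and *Rpi* with the block and *fbp* and *sug* with no filter. The cause was not tested for any setting. The lone precise excision library could not be left out, and its spread is unknown, which limits every mutant value. In fits that leave 1 library in a group, that library was assumed to vary like the others.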
